A study of Homo sapiens with 8 samples.

Results

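Distal intronic H3K9ac peaks are peaks of histone H3 acetylated at lysine 9 that lie in an intron, more than 5000 bp from the nearest annotated transcription start site (TSS). They were taken from both H3K9ac peak lists by the position and distance that the deposited annotation gives each peak, so no tag level chose them. There were 896 among 20326 stromal peaks and 118 among 7141 astromal peaks, in all 1014 of 27467. The chromatin came from spheroids of MIA PaCa-2, an established human pancreatic cancer cell line, grown in a hydrogel of modified hyaluronan with a polyethylene glycol cross-linker. Stromal gels also held Gelin-S, a collagen-derived component, and were fed medium that immortalized myofibroblasts from human pancreatic tumours had conditioned for 48 h at 2% serum. Astromal gels had water in place of Gelin-S and were fed unconditioned DMEM with 2% serum. Both kinds of gel were first covered with DMEM with 10% serum. Gel and medium changed together, so their parts cannot be told apart. Either mark was sequenced in 1 library per condition, 4 in all, so differences between conditions have no replicate check, and no p-value is given for them.

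H3K9ac is laid down mainly by the acetyltransferases GCN5 and PCAF and is found mostly at promoters of active genes. Away from promoters it marks active enhancers, often together with H3K27ac, acetylation of lysine 27 of the same histone. Introns hold many enhancers, which can act on the gene that contains them or on a neighbour. An intronic peak can also mark a promoter that the annotation lacks. The gene whose intron holds a peak is called its host here, and need not be the gene that the element controls.

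Depth was estimated at 7569791 tags for stromal and 3923202 for astromal H3K9ac, a ratio of 1.93, and the H3K27ac headers give 17190695 and 13453902 tags. Levels are tags in a peak per 10000000 tags of the library, called normalised tags below. For H3K9ac this scale was assumed, and the estimated depths rest on it. A stromal H3K9ac tag is worth 1.32 normalised tags and an astromal tag 2.55. Intervals in brackets are exact 95% Clopper-Pearson intervals and cover counting error only. Neighbouring peaks are not independent, which the intervals ignore. Among markers of pancreatic ductal and epithelial cells, 4 of 11 had H3K9ac within 1 kb of their TSS in the stromal list (KRT8, KRT18, KRT19, MUC1) and 4 of 11 in the astromal list (KRT18, SOX9, MUC1, CLDN4). EPCAM, CDH1, KRT7 and GATA6 had none in either list. Fibroblast markers had it for 3 of 11 genes in the stromal list (COL1A1, COL1A2 and ACTA2, with 76.6 normalised tags in sum) and for 0 of 11 in the astromal list. Of the mesenchymal markers, VIM alone had it, in the stromal list alone, and ZEB1, CDH2, SNAI2 and FN1 had none. Acinar, leukocyte and endothelial markers had no such peak in either list. Peaks within 1 kb of a TSS numbered 15541 in the stromal and 6150 in the astromal list. No share over all genes is set beside these marker counts. ACTA2, encoding smooth muscle actin, also held 1 stromal distal intronic peak, at 15.9 normalised tags and nearest to the TSS of FAS. The part of these markers in the results below was not tested.

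Distal intronic peaks made up 4.41% of the stromal list (4.13 to 4.7) and 1.65% of the astromal list (1.37 to 1.98). The intervals did not overlap. Their number was 7.59 times as high in the stromal list, while the number of all H3K9ac peaks was 2.85 times as high. They were weak peaks. The stromal members had a median of 17.2 normalised tags, or 13 tags, against 26.4 for all stromal peaks. The astromal members had a median of 20.4 normalised tags, or 8 tags, against 22.9 for all astromal peaks. Distal intergenic peaks were weak as well, with medians of 19.8 normalised tags in the stromal and 20.4 in the astromal list. Of the 896 stromal members, 780 reached the lowest level found in the astromal list and 418 reached its 5th percentile of 17.8.

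The distal intronic share fell with peak level in the stromal list. It was 12.2% among stromal peaks under 15 normalised tags (10.9 to 13.6), 7.24% from 15 to under 20, 3.79% from 20 to under 25, 3.16% from 25 to under 30, 1.82% from 30 to under 40 and 0.76% at 40 or more. At 15 to under 20 normalised tags it was 7.24% of stromal peaks (6.44 to 8.1) and 2.41% of astromal peaks (1.73 to 3.27). At 20 to under 25 it was 3.79% of stromal (3.11 to 4.58) and 1.93% of astromal peaks (1.43 to 2.55), and at 25 to under 30 it was 3.16% (2.58 to 3.82) of stromal and 1.09% (0.624 to 1.76) of astromal peaks. Stromal and astromal intervals, which cover counting error only, did not overlap from 15 to under 30 normalised tags, where the stromal share was higher. The intervals overlapped above that, with 1.82% of stromal and 0.794% of astromal peaks from 30 to under 40, and 0.76% of stromal (0.497 to 1.11) and 1.16% of astromal peaks (0.316 to 2.93) at 40 or more. Distal intergenic peaks had the same pattern, so it was not particular to distal introns. They made up 11.7% of the stromal and 6.71% of the astromal list. At 15 to under 20 they were 17% of stromal and 7.97% of astromal peaks, and at 25 to under 30 they were 9.76% and 5.52%. Their stromal share fell from 23.9% under 15 to 4.97% at 40 or more. A given level rests on fewer tags in the astromal library than in the stromal one. The 5th percentile of levels was 13.2 in the stromal and 17.8 in the astromal list, so a bin is not placed alike in both. The sources used here do not give the thresholds behind the H3K9ac lists. Condition, depth and calling cannot be told apart in these numbers. In such bulk chromatin, acetylation in fewer cells and less acetylation per cell cannot be told apart either.

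**Figure D1:**
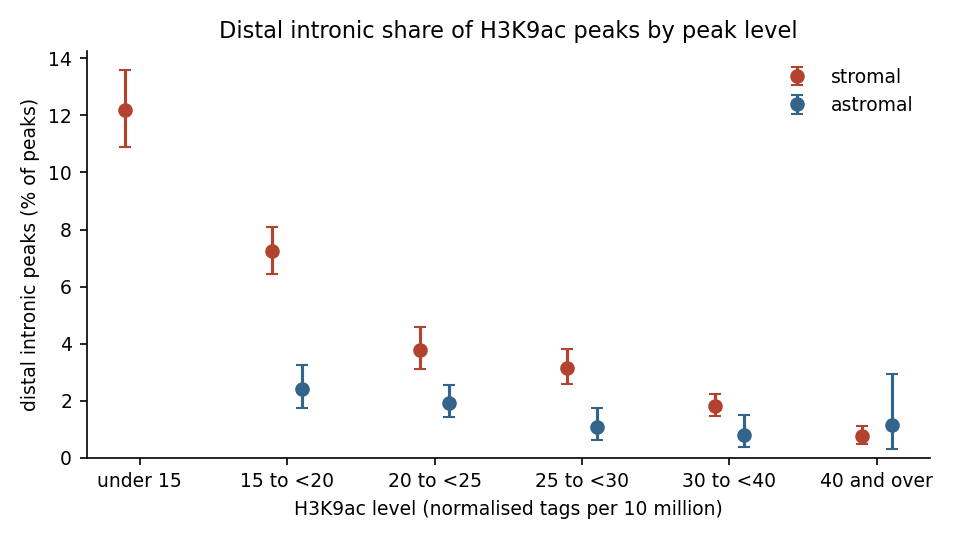
Share of H3K9ac peaks that are distal intronic (y axis, percent) by peak level (x axis, normalised tags) in the stromal (left point of each pair) and the astromal list, with 95% Clopper-Pearson intervals as bars. The stromal share falls from bin to bin, 12.2% under 15 and 0.76% at 40 or more, and lies above the astromal share in each bin from 15 to under 40; no astromal distal intronic peak lies under 15.

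The selection rule set a lower limit of 5000 bp on the distance to the nearest TSS, which need not be that of the host. The median distance to the nearest TSS was 24.1 kb for stromal and 22.3 kb for astromal members, and the farthest lay at 479.7 kb in the stromal and 269 kb in the astromal list. The first intron held 31.4% of stromal (28.3 to 34.5) and 35.6% of astromal members (27 to 44.9), and the third or a later intron held 50.8% of stromal and 46.6% of astromal members. Intronic peaks within 5 kb of a TSS were in the first intron in 93.2% of stromal and 94.6% of astromal cases. Since the distance rule separates these groups, this contrast follows in part from the selection. The nearest TSS belonged to the host gene for 67.7% of stromal and 65.3% of astromal members. Where it did not, it belonged to a microRNA gene for 54 of 289 stromal and 13 of 41 astromal members. The host transcript was non-coding for 14.3% of stromal and 12.7% of astromal members.

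CpG islands, stretches rich in CG dinucleotides that usually mark promoters, held 16.9% of stromal (14.5 to 19.5) and 28% of astromal members (20.1 to 37). Over all peaks they held 18.7% in the stromal and 19.4% in the astromal list. Distal intergenic peaks also had the higher share in the astromal list, 24.1% in the stromal and 36.5% in the astromal one. Among intronic peaks within 5 kb of a TSS, CpG islands held 52.4% of stromal and 55.1% of astromal peaks. Annotated repeats held 16.6% of stromal and 12.7% of astromal members, against 4.87% of all stromal and 3.23% of all astromal peaks. Promoter peaks made up 76.5% of the stromal and 86.1% of the astromal list, and 1.65% and 1.69% of them were labelled as repeats. In 81.2% and 81.3% they had neither a CpG island nor a repeat label. The contrast with all peaks thus follows in part from the mix of classes, and how promoter peaks get these labels was not tested. Intronic peaks within 5 kb of a TSS lay in repeats in 5.81% of stromal and 5.94% of astromal cases. Distal intergenic peaks lay in repeats more like the members, at 19.1% in the stromal and 15.4% in the astromal list. The stromal repeats were 57 SINE, 45 LINE, 21 DNA and 19 LTR elements, with 7 in satellites or in low-complexity or simple repeats. Across chromosomes, the members' share of the stromal list ran from 1.89% on chromosome X to 7.87% on chromosome 18. None of the astromal members lay on chromosome 13, 15 or 20. These held 83, 113 and 197 of all astromal peaks, and members were 1.65% of the whole astromal list.

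At the distance threshold, the stromal members nearest to it lay in SCHIP1 at 5097 bp, with 46.2 normalised tags, and in ARHGEF19 at 5137 bp, with 29.1. The stromal intronic peaks just short of it lay in TRIM54 at 4935 bp, with 27.7 normalised tags, and in GPR84-AS1 at 4925 bp, with 26.4. In the astromal list the nearest member lay in ARHGEF19 at 5091 bp (20.4 normalised tags), and the nearest peaks left out in ZNF19 at 4860 bp (43.3) and SSC4D at 4583 bp (25.5).

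The 10 strongest members of each list lay in host genes of unrelated roles. The highest stromal member lay in NBPF10 on chromosome 1 from 145395996 to 145396206 (hg19, as are all positions here), with 67.4 normalised tags (51 tags) in stromal and 40.8 (16 tags) in astromal spheroids. Its nearest TSS was that of HFE2. NBPF10 belongs to the neuroblastoma breakpoint family, whose near-identical copies make the origin of its reads uncertain. The next was in the first intron of PFKFB3, whose enzyme makes fructose 2,6-bisphosphate, an activator of glycolysis. It lay in a CpG island on chromosome 10 from 6205870 to 6206080, with 59.4 normalised tags (45 tags) in stromal and 22.9 (9 tags) in astromal spheroids, and its nearest TSS was that of MIR3155B. A weaker stromal peak of 22.5 normalised tags stood next to it, and neither overlapped H3K27ac in either condition. An astromal H3K27ac peak lay close by, its centre 326 bp from that of the astromal H3K9ac peak.

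NINJ2, encoding an adhesion protein of the cell surface, had a peak in its first intron on chromosome 12 from 679327 to 679537, with 58.1 normalised tags in stromal and 45.9 in astromal spheroids. CENPT, a protein of the inner kinetochore, held one of 56.8 normalised tags in stromal and 22.9 in astromal spheroids in its intron 4, nearest to the TSS of THAP11. The uncharacterised LOC100505942 held one of 55.5 in stromal and 20.4 in astromal spheroids. RAP1GAP2, which switches off the GTPase Rap1, held one of 55.5 in an LTR repeat, nearest to the TSS of LOC101927911, with no overlapping astromal H3K9ac peak. VPS26C (named DSCR3 in the files), a subunit of the retriever complex that recycles membrane proteins, had 55.5 normalised tags at its stromal peak and 51 at its astromal one. The astromal VPS26C peak was the highest of its list. These peaks lie side by side in intron 1, the stromal one from 38630128 to 38630338 and the astromal one from 38629775 to 38629975 on chromosome 21, so they did not count as shared. The stromal 10 also included peaks in ITPKB, an inositol trisphosphate kinase, at 51.5 and in SPACA6, a sperm protein needed for fertilisation, at 50.2 normalised tags. Their nearest TSSs were those of ITPKB-IT1 and SPACA6P-AS.

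The astromal 10 held VPS26C, NINJ2 and NBPF10 as well, at 51, 45.9 and 40.8 normalised tags. MRPS27, a protein of the mitochondrial ribosome, had 33 normalised tags in stromal and 43.3 in astromal spheroids. CD247, the zeta chain of the T-cell receptor complex, had 41 in stromal and 35.7 in astromal spheroids. BRSK1, a kinase related to AMPK, had 35.7 in both conditions. SPRY4-AS1 had 43.6 in stromal and 35.7 in astromal spheroids, and LINC03006, nearest to the TSS of ZNF92, had 42.3 in stromal and 33.1 in astromal spheroids. The astromal peaks of TPRG1 (35.7, nearest to TPRG1-AS2) and TNRC18 (33.1) overlapped no stromal peak. In TNRC18, however, a stromal peak of 33 normalised tags lay beside the astromal one in the same intron. The stromal peak ran from 5436418 to 5436628 and the astromal one from 5436668 to 5436868 on chromosome 7.

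The stromal members lay in 619 host genes and the astromal ones in 107. Of the stromal hosts, 442 held 1 peak, 120 held 2 and 57 held 3 or more. Of the astromal hosts, 97 held 1, 9 held 2 and 1 held 3. Hosts common to both lists numbered 94, which was 15.2% of the stromal and 87.9% of the astromal hosts. The host also had H3K9ac within 1 kb of its own TSS in the same list for 59.6% of stromal hosts (55.6 to 63.5) and 28% of astromal hosts (19.8 to 37.5). The stromal list held 15541 peaks within 1 kb of a TSS and the astromal list 6150. The same share over all genes is not given here, so this contrast cannot be read as a trait of the hosts.

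RAD51B, which acts in repair of DNA breaks by homologous recombination, held the most peaks. Its 12 stromal peaks spanned 564.4 kb of chromosome 14, 10 of them in intron 7, with 13.2 to 33 normalised tags each. Its single astromal peak, from 68555079 to 68555279 with 22.9 normalised tags, overlapped the highest stromal one, from 68555112 to 68555322 with 33. This site also had H3K27ac, at 29.1 normalised tags in stromal and 37.9 in astromal spheroids. In all, 4 of the 12 stromal peaks overlapped stromal H3K27ac. The last 2 were nearest to ZFP36L1, an RNA-binding protein that promotes mRNA decay.

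SPRY4-AS1, a transcript antisense to the receptor tyrosine kinase inhibitor SPRY4, held 7 stromal and 2 astromal peaks, all in its intron 3 and nearest to the TSS that the files name LOC101926941. Both astromal peaks were among the stromal sites, with 43.6 and 19.8 normalised tags in stromal and 35.7 and 17.8 in astromal spheroids. CAMTA1, a calmodulin-binding transcription activator, held 7 stromal peaks of 13.2 to 33 normalised tags, of which 6 were nearest to the TSS of VAMP3, a vesicle fusion protein. Its 1 astromal peak had 17.8 normalised tags, where the overlapping stromal peak had 23.8. BCOR, the BCL6 corepressor and a subunit of a Polycomb complex, held 6 stromal peaks, all in intron 1 and 5 of them in CpG islands, and 2 astromal peaks of 17.8 normalised tags each. Its stromal peaks had 18.5 to 34.3 normalised tags. The BCOR promoter itself had a stromal peak of 58.1.

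DLGAP1, a scaffold protein of the synapse, held 5 stromal peaks of 21.1 to 38.3 normalised tags and 1 astromal peak of 28 that overlapped none of them. GNG7, a G protein gamma subunit, held 5 stromal peaks of 11.9 to 26.4. PRKAG2, a regulatory subunit of AMPK, held 5 of 13.2 to 23.8, of which 3 overlapped stromal H3K27ac. The other hosts of the stromal 10 were NBPF8 with 6 peaks, NBPF10 with 4 and EXD3 with 4. The last 2 were taken from the 14 stromal hosts with 4 peaks for their summed tags of 142.6 and 100.4. The NBPF counts share the uncertainty of copied sequence. Among astromal hosts RAI1, a chromatin-associated transcriptional regulator, held the most peaks, 3 of 17.8 to 20.4 normalised tags. All 3 overlapped stromal peaks, of 26.4, 35.7 and 15.9 normalised tags. NINJ2, SPRY4-AS1, LARP1, CHD9, PAX8, RCAN1, ZBTB38, APOLD1 and BCOR held 2 astromal peaks each.

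**Figure D2:**
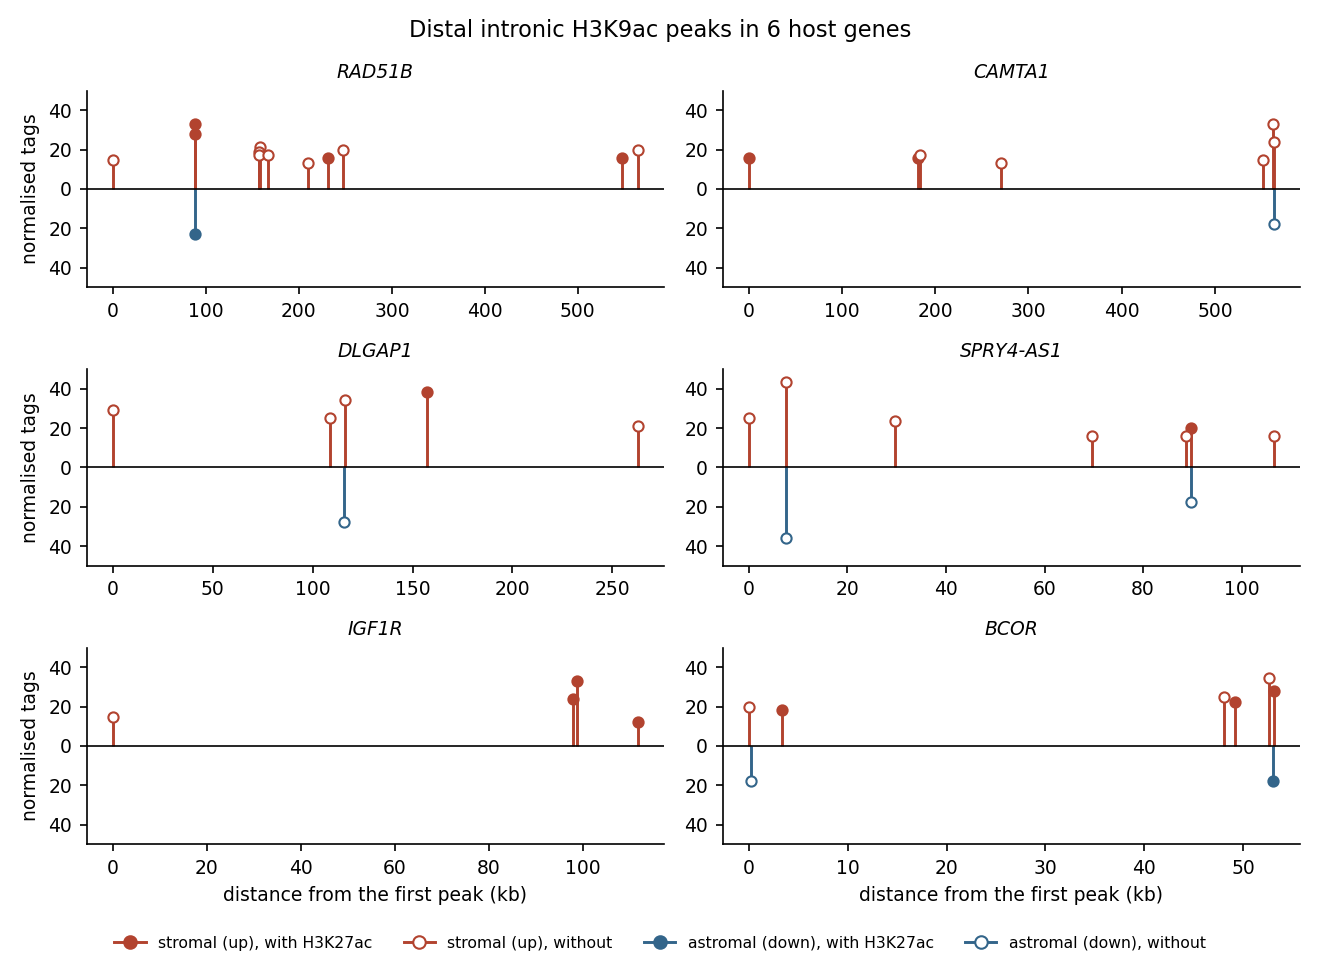
Distal intronic H3K9ac peaks in 6 host genes, by distance from the first peak in the gene (x axis, kb) and level (y axis, normalised tags), with stromal peaks upward and astromal peaks downward; filled circles overlap H3K27ac of the same condition. RAD51B shows 12 stromal peaks and 1 astromal peak, SPRY4-AS1 shows 7 and 2, and IGF1R shows 4 stromal peaks and none astromal.

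When peaks no more than 12.5 kb apart were joined, the 896 stromal members formed 715 sites, of which 559 were single peaks, 133 were pairs and 23 held 3 or more. The largest stitched sites lay in RAD51B, with 4 peaks over 10 kb and 74 normalised tags in sum, and in BCOR, with 4 over 5.2 kb and 109.6. LARP1, an RNA-binding protein that regulates translation, had the highest sum of those with 3 peaks, 112.3 normalised tags over 2 kb of its first intron. It was chosen for this after its values were seen. The astromal members formed 108 single sites and 5 pairs.

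Genes of growth factor and MAPK signalling, TGF-beta and YAP signalling, adhesion and other themes were read from lists. Over all 12326 genes named in either H3K9ac list, 4.89% hosted a stromal and 0.852% an astromal distal intronic peak. Growth factor and MAPK genes hosted stromal peaks in 5 of 43 cases and astromal peaks in 2. IGF1R, the receptor of insulin-like growth factor 1, held 4 stromal peaks of 11.9 to 33 normalised tags in intron 2, with stromal H3K27ac at 3 of them and MIR4714 as the nearest TSS, and no astromal peak. INSR, the insulin receptor, held 3 stromal peaks of 15.9 to 25.1 normalised tags and 1 astromal peak of 17.8. EGFR, the epidermal growth factor receptor, held 3 stromal peaks of 14.5, 15.9 and 26.4 normalised tags in intron 1, none with H3K27ac in either condition. MET, the receptor of hepatocyte growth factor, held 1 peak in both lists, with 26.4 normalised tags in stromal and 22.9 in astromal spheroids, and H3K27ac in both. The adaptor GRB2 held 1 stromal peak of 25.1.

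TGF-beta, SMAD and YAP genes hosted stromal peaks in 4 of 39 cases and an astromal peak in 1. TEAD1, the DNA-binding partner of YAP, held 3 of 15.9 to 18.5 normalised tags. LTBP2, a latent TGF-beta binding protein family member, held 1 stromal peak of 21.1 and 1 astromal peak of 15.3 that did not overlap. BMPR1A and TGFBR3, receptors of the family, held 1 stromal peak each, of 17.2 and 15.9. Adhesion and actin genes hosted stromal peaks in 7 of 47 cases and astromal peaks in 0, and of their 10 stromal peaks 1 overlapped stromal and 4 overlapped astromal H3K27ac, against 36.8% and 35.2% of all stromal members. They included BCAR3, LPP, the actin cross-linker ACTN4, the protease CAPN2, the formin DIAPH1 and the myosin MYO1E, with 11.9 to 46.2 normalised tags in sum per gene. Epithelial identity genes hosted stromal peaks in 3 of 19 cases, namely the ETS factor EHF with 3 peaks of 14.5 to 15.9, the keratin KRT80 with 13.2 and the factor GATA4 with 11.9. None of these 5 peaks overlapped H3K27ac of either condition, as was true of 52.8% of all stromal members. No gene of this list hosted an astromal peak.

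Mesenchymal and matrix genes hosted stromal peaks in 2 of 20 cases, the cross-linking enzyme LOXL2 and the protease inhibitor TIMP2, with 27.7 normalised tags in sum each, and no astromal peak. A list of AP-1, immediate early, RUNX and other enhancer-binding factors had stromal hosts in 3 of 35 cases. They were the nuclear factor I protein NFIX, the small MAF protein MAFK and the Wnt pathway factor TCF7L2, and none of the FOS, JUN, EGR or RUNX genes of the list hosted a peak in either list. All 4 of these stromal peaks, from 3 genes, overlapped stromal H3K27ac, against 36.8% of all stromal members. ETS1, an ETS factor, held the 1 astromal peak of that list, at 22.9 normalised tags with H3K27ac at 20.8, and no stromal peak. JUN-DT, a non-coding transcript that is not on the list, held 3 stromal peaks of 17.2 to 22.5 normalised tags. All 3 overlapped stromal H3K27ac, and 1 was also in the astromal H3K9ac list. JUN-DT is named here after its values were seen. Chromatin regulators hosted stromal peaks in 6 of 52 cases and astromal peaks in 0. They included the histone deacetylases HDAC4, HDAC7 and HDAC9, the acetyltransferase KAT2B and the demethylase KDM2B. Metabolic genes did so in 1 of 51 cases in each list, both times PFKFB3. No gene of the hypoxia and NRF2 list (27 measured) or of the pancreatic tumour suppressor and oncogene list (29 measured) hosted a member in either condition. These shares can depend on intron length, which was not analysed here.

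Most stromal members had no counterpart among astromal H3K9ac peaks. Of 896, 822 (91.7%) overlapped no astromal H3K9ac peak, against 73.4% of all stromal peaks. Of the astromal members, 44 of 118 (37.3%) overlapped no stromal peak, against 24.2% of all astromal peaks. Overlapping any peak of the other list were 74 stromal members (8.26%, 6.54 to 10.3) and 74 astromal members (62.7%, 53.3 to 71.4). These sets are not quite the same, since 72 of the 74 stromal members overlapped a peak that was itself distal intronic in the astromal list, PRX and SYT5 being the exceptions. Among the 44 astromal members without an overlap, 28 had a stromal peak centre within 1 kb. In each bin of stromal level under 40 normalised tags, a smaller share of members than of promoter peaks was also in the astromal list. The intervals did not overlap from 15 to under 20, with 2.14% of members (0.788 to 4.59) and 7.6% of promoter peaks (6.61 to 8.69), nor from 30 to under 40, with 27.4% of members (18.2 to 38.2) and 40.4% of promoter peaks (38.9 to 42). They overlapped in the other bins under 40, with 0.669% of members and 2.43% of promoter peaks under 15, 8.65% and 13.3% from 20 to under 25, and 13.7% and 23.2% from 25 to under 30. At 40 or more the 26 members had 76.9% (56.4 to 91) and promoter peaks 66.7% (65 to 68.4). Distal intergenic stromal peaks were also below promoter peaks in each bin under 40, so this was not particular to distal introns. They had 4.54% (3.08 to 6.42) from 15 to under 20 and 32.4% (27.3 to 37.8) from 30 to under 40. Both intervals overlapped those of the members. Over all levels, 15% of distal intergenic stromal peaks (13.6 to 16.5) were in the astromal list.

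At the 74 stromal members that overlapped an astromal H3K9ac peak, the stromal level was mostly the higher one. The median was 33 normalised tags (25 tags) in stromal and 20.4 (8 tags) in astromal spheroids. The median log2 ratio was 0.51, or 1.42-fold, with quartiles of 0.256 and 0.814, and 64 of 74 sites were higher in stromal spheroids. Over all 5411 shared peaks the median log2 ratio was 0.64, and relative to that shift the members lay 0.13 lower. At least 2-fold higher in stromal spheroids were 15 of the 74 (20.3%), against 21.2% of all shared peaks, and at least 2-fold lower were 0, against 0.0185%. The counting interval of the ratio excluded no change at 7 of the 74 sites (9.46%), against 14.4% of all shared peaks. These shares lay near the background. Since a site had to reach the threshold of both lists to be counted, sites with a larger difference are missing from this comparison.

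The highest ratio was at TLE2, a corepressor of the Groucho family, with 48.9 normalised tags (37 tags) in stromal and 17.8 (7 tags) in astromal spheroids, a log2 ratio of 1.46 (0.27 to 2.86). LOC100505942 followed at 1.44 (0.34 to 2.75) and PFKFB3 at 1.38 (0.32 to 2.59). ITPKB had 1.34 (0.22 to 2.65). CHD9, a chromodomain helicase, had 1.33 (0.14 to 2.75) at a site 153.6 kb from its TSS, with 44.9 normalised tags in stromal and 17.8 in astromal spheroids. The lowest was at MAML2, a coactivator of Notch, with 11.9 normalised tags (9 tags) in stromal and 17.8 (7 tags) in astromal spheroids, a log2 ratio of -0.58 (-2.18 to 1.07). DYNC2I1 (WDR60 in the files), a dynein chain of cilia, had -0.53 and MRPS27 had -0.39. The intron of transcript NM_207435, nearest to C12orf76, had -0.49, and RAI1, nearest to SMCR5, had -0.36. The intervals of these 5 low sites all included 0.

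**Figure D3:**
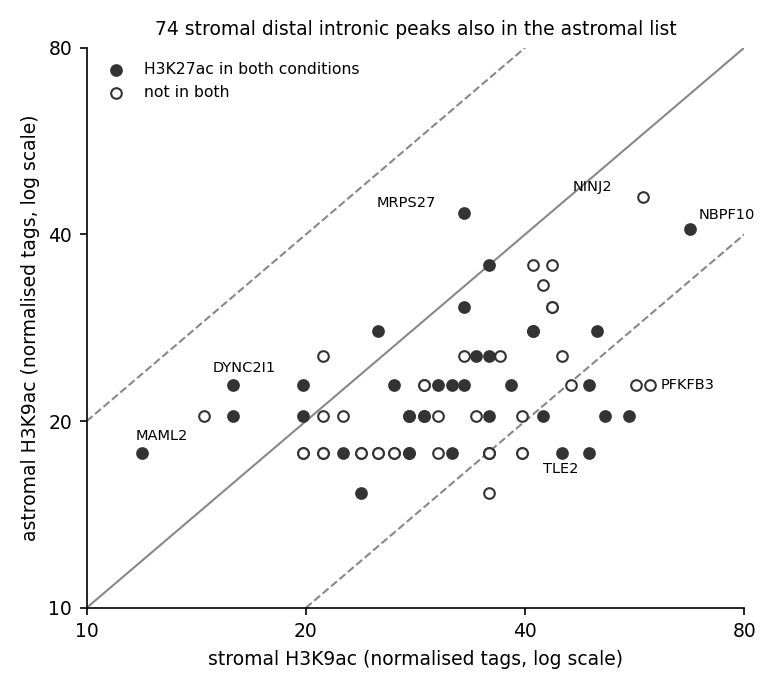
H3K9ac levels at the 74 stromal distal intronic peaks that overlap an astromal H3K9ac peak, stromal on the x axis and astromal on the y axis (normalised tags, log scales). The solid line marks equal levels and the dashed lines 2-fold differences; 64 sites lie below the solid line, and filled circles mark sites with H3K27ac in both conditions.

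H3K27ac of the same condition overlapped 330 of 896 stromal members (36.8%, 33.7 to 40.1), against 39.9% of all stromal H3K9ac peaks. In the astromal list it overlapped 59 of 118 members (50%, 40.7 to 59.3), against 59.7% of all astromal peaks. Widened to peak centres within 1 kb, the shares were 53.1% of stromal members, against 64.8% of all stromal peaks, and 66.9% of astromal members, against 86% of all astromal peaks. Weak stromal members overlapped H3K27ac more often than promoter peaks with as many tags. At 9 tags or fewer, 21.6% of members (14.5 to 30.1) and 9.01% of promoter peaks (6.16 to 12.6) did so. At 10 to 14 tags it was 31.1% of members (26.7 to 35.8) and 18.9% of promoter peaks (17.5 to 20.4), and at 15 to 19 tags it was 45.7% of members (38.3 to 53.1) and 33.1% of promoter peaks (31.5 to 34.7). These intervals do not overlap. With more tags they did, at 49.3% of members and 46.9% of promoter peaks for 20 to 29 tags.

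Intronic stromal peaks within 5 kb of a TSS overlapped H3K27ac least, at 5.84% for 9 tags or fewer, 13.3% for 10 to 14 and 22.2% for 15 to 19. Distal intergenic stromal peaks had 17.7%, 25.5% and 37.5% in the same bins, and their intervals overlapped those of the members. In the astromal list the order did not appear: at 9 tags or fewer, 48.3% of members (37.6 to 59.2) and 55.8% of promoter peaks (54.1 to 57.4) overlapped H3K27ac. The H3K27ac caller asked for 4-fold more tags than in the surrounding 10 kb, a filter that took out 12583 of 30936 putative stromal peaks and 11543 of 27707 putative astromal ones. Its part in these shares was not tested.

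**Figure D4:**
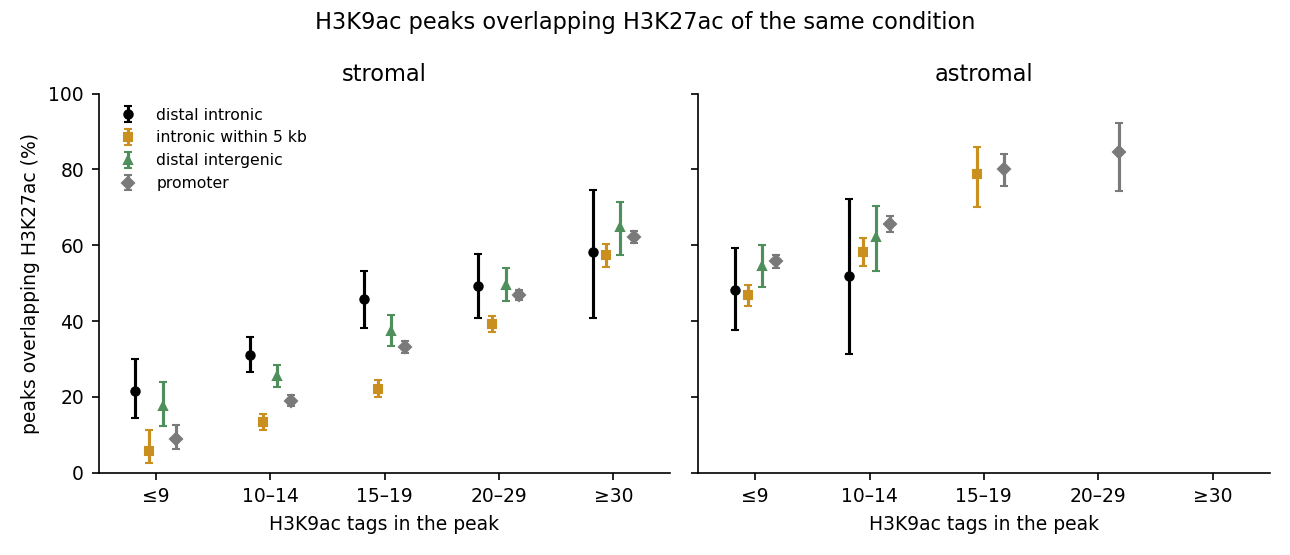
Share of H3K9ac peaks overlapping H3K27ac of the same condition (y axis, percent) by tags in the H3K9ac peak (x axis), for distal intronic peaks and 3 other classes, stromal on the left and astromal on the right, with 95% Clopper-Pearson intervals; groups under 20 peaks are left out. In the stromal panel the distal intronic points stand above the promoter points up to 19 tags, as with 31.1% against 18.9% at 10 to 14 tags.

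Stromal members in CpG islands overlapped H3K27ac least although they were the stronger ones. They had a median of 23.8 normalised tags and 19.9% overlapped stromal H3K27ac (13.8 to 27.1). Members in repeats had a median of 17.2 normalised tags and an overlap of 43.6% (35.5 to 52). Those in neither had 17.2 and 39.4% (35.5 to 43.5). At 20 tags or more, 25.9% of members in CpG islands (15.3 to 39) and 63.3% of the other members (54.1 to 71.9) overlapped stromal H3K27ac. The same order held in the other stromal classes, with 26.2% in CpG islands and 40.4% in neither for intronic peaks within 5 kb, and 22.4% and 40.7% for distal intergenic peaks. It was thus not particular to distal introns. In the astromal list, 51.5% of members in CpG islands (33.5 to 69.2) and 47.1% of those in neither (35.1 to 59.4) overlapped astromal H3K27ac, which their intervals cannot separate.

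**Figure D5:**
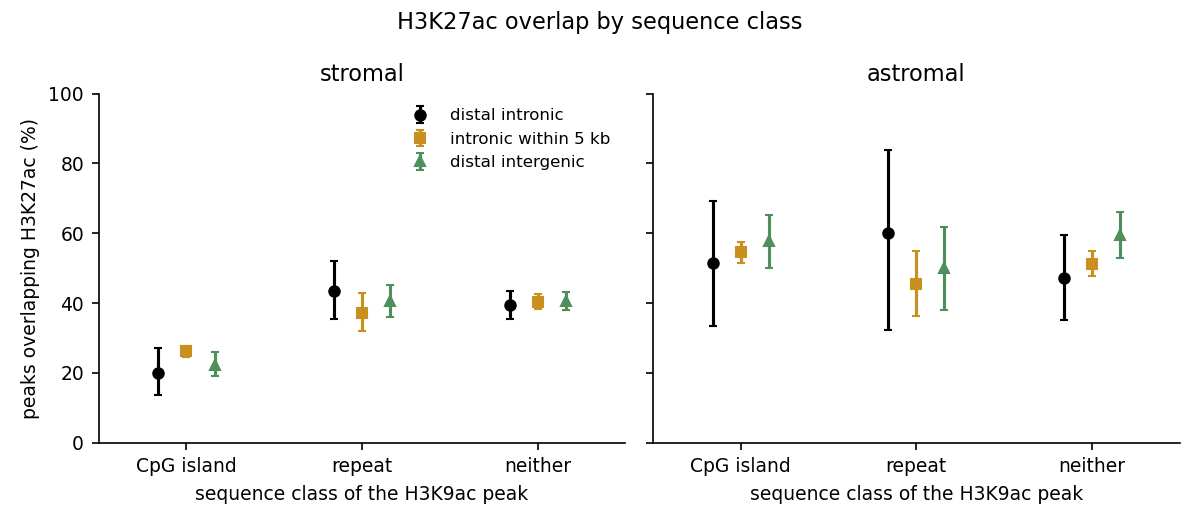
Share of H3K9ac peaks overlapping H3K27ac of the same condition (y axis, percent) by sequence class of the peak (x axis), for 3 classes of location, stromal on the left and astromal on the right, with 95% Clopper-Pearson intervals. In the stromal panel the CpG island points are the lowest, 19.9% for distal intronic peaks, and in the astromal panel the intervals of the distal intronic peaks overlap.

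Of the 822 members with stromal H3K9ac alone, 34.4% overlapped stromal H3K27ac (31.2 to 37.8) and 32% overlapped astromal H3K27ac (28.8 to 35.3). H3K27ac was in both conditions at 21.9% of them, in stromal spheroids alone at 12.5%, in astromal spheroids alone at 10.1% and in neither at 55.5%. Of the 74 stromal members with astromal H3K9ac as well, H3K27ac was in both conditions at 56.8% (44.7 to 68.2) and in neither at 23%, against 48.6% and 23.1% of all such stromal peaks. Of the 44 members with astromal H3K9ac alone, it was in both at 20.5% (9.8 to 35.3) and in neither at 68.2% (52.4 to 81.4), against 24.6% and 47.1% of all such astromal peaks. Over all 14915 stromal peaks without an astromal overlap the shares were close to those of the members, at 33.2% with stromal and 35.1% with astromal H3K27ac, 22.7% with both and 54.4% with neither.

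At the 222 stromal members with H3K27ac in both conditions, the median H3K27ac level was 12.8 normalised tags in stromal and 14.9 in astromal spheroids. The median log2 ratio was -0.12, against -0.18 over all 8814 shared H3K27ac peaks. At least 2-fold higher in stromal spheroids was 1 of the 222, against 0.125% of all shared H3K27ac peaks, and at least 2-fold lower were 4 (1.8%), against 2.72%. For the 180 of these without astromal H3K9ac the median log2 ratio was -0.13.

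Sites with both marks in both conditions, judged by overlap with the stromal H3K9ac peak, were ranked by mean H3K9ac. NBPF10 came first, with H3K27ac at 33.2 normalised tags in stromal and 40.1 in astromal spheroids. SPACA6 followed with 11.1 in stromal and 9.66 in astromal spheroids, then MRPS27 with 16.9 in stromal and 17.1 in astromal spheroids. LOC100505942 had 27.9 in stromal and 20.8 in astromal spheroids. RNFT2, whose site in intron 7 lay 62.3 kb from the TSS of the apoptosis gene HRK, had H3K9ac of 43.6 in stromal and 30.6 in astromal spheroids and H3K27ac of 11.1 in stromal and 13.4 in astromal spheroids. ITPKB, BRSK1, PRX and PSPH were also among the 10. The astromal H3K9ac peak of ITPKB did not itself overlap astromal H3K27ac, whose nearest centre lay 277 bp away. PSPH, the last enzyme of serine synthesis, had H3K27ac of 12.2 in stromal and 30.5 in astromal spheroids, while its H3K9ac was 41 in stromal and 28 in astromal spheroids. The log2 ratio of its H3K9ac was 0.55, with an interval of -0.48 to 1.69 that held both 0 and the median of 0.64 over all shared H3K9ac peaks.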

How the data were processed

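The submitters' processing notes name CASAVA 1.8.2, Bowtie, HOMER and the hg19 build, and each deposited list comes from 1 library. For H3K27ac, HOMER called peaks against input at an FDR of 0.001 with at least 4-fold over input and over the surrounding 10 kb, per the file headers. Both marks' lists hold a signal, tags per peak scaled to 10000000 tags, a scale that was assumed for H3K9ac. They also hold a focus fraction that the authors deposited and that is not used here. Fold over input is a ratio deposited for H3K27ac only. The H3K9ac lists carry HOMER annotation, per the file headers. Their calling thresholds and depth were not found in the labels or headers. H3K9ac tag counts were recovered from the even steps of the deposited signal, with every value within 0.036 tag of a whole number. The input libraries were not used here.

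Intronic peaks over 5000 bp from a TSS were kept, with no filter on level. The host is the gene of the transcript in the deposited annotation, named through RefSeq (GRCh38.p14, names only), which matched 877 of 896 stromal and 116 of 118 astromal members. Promoter peaks lie within 1 kb of a TSS. Peaks overlapped when they shared at least 1 bp, and of several overlapping peaks the highest was used. The H3K9ac peaks were 210 bp wide in the stromal and 200 bp in the astromal list. Scripts ran in Python 3.11.15 with pandas 2.3.3 and scipy 1.17.1. Recovery of tags, overlaps and intervals was tested on simulated data, and overlaps were checked against bedtools 2.31.1.

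Named were the 10 highest peaks and the 10 hosts with most peaks of each list (ties by summed tags), the 5 highest and 5 lowest ratios, 10 sites with both marks in both conditions, up to 8 hosts per gene list and the peaks nearest the distance threshold. Members and gene lists were chosen with earlier results of these data known. Some items that this rule names are not reported here.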

Additional observations from a re-analysis of the deposited data

How the results depend on the processing

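Of 71 recomputed values of 9 results, 46 stayed close to the reported value, within 1.5 times for a number of peaks and within the counting interval for a share or a median. A distance over 20 kb left 519 stromal and 63 astromal members and put 24.7% of the stromal ones in a first intron. A level of at least 25 normalised tags left 212 stromal and 29 astromal members (1.88% of the stromal and 0.984% of the astromal list), with 34.9% of the stromal ones in a first intron and 50.9% with H3K27ac. At least 10 tags left 29 astromal members, found 2.56% of stromal members in the astromal list and gave a median log2 ratio of 0.40. Overlap of at least 50% of the shorter peak gave 6.25% of stromal and 48.3% of astromal members in the other H3K9ac list, and H3K27ac at 27.6% of stromal and 36.4% of astromal members. Centres within 1 kb gave 13.8% and 53.1% for stromal and 86.4% and 66.9% for astromal members in the same order, and a median log2 ratio of 0.41. Centres within 5 kb gave 16.4% and 56.8% for stromal and 89% and 71.2% for astromal members. H3K27ac at least 8-fold over input left 33.1% of stromal members with an overlap. Centred on all shared peaks, the median log2 ratio reversed to -0.13, so the excess at shared distal intronic sites was no larger than that of shared peaks in general. No paired analysis was possible because each group is 1 library, and for the same reason no replicate could be left out. With a median of 8 tags in an astromal member, the depth limits every ratio of single sites.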
